A study of Homo sapiens with 8 samples.

Results

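The transcripts of 6 neuropeptide genes (NTS, NPY, GAL, VIP, SST and CARTPT) and 4 granin genes (CHGA, CHGB, SCG2 and SCG3) were followed across 4 groups of human neuroblastoma cells. Every probe that the deposited table names by one of these 10 symbols was taken, which gave 13 probes of 47322 in all (31426 gene symbols, and 3270 probes without a symbol). NTS was chosen by its change in SH-SY5Y knockdown cells, where it had the highest fitted increase of all probes. Its values in that comparison are therefore given as a description without a test, and the other 9 genes were added as the same family.

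RNA was hybridised to Illumina HumanHT-12 v4 arrays, 2 per group and 8 in all. SH-SY5Y is a neuroblastic and SH-EP2 a non-neuronal subclone of the SK-N-SH neuroblastoma line. Both had been stably transduced with a lentiviral short hairpin RNA (shRNA) and selected with puromycin, so that all 4 groups carry the vector. It held the TRPM7 shRNA in the knockdown groups and a nonfunctional shRNA in the controls. TRPM7 encodes an ion channel fused to a kinase, and the arrays ask which genes respond to its knockdown in each line. A single TRPM7 shRNA sequence was used on the arrays.

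Neuropeptides are made as larger precursors that enter the regulated secretory pathway, where prohormone convertases cleave them and other enzymes trim and amidate the products. The mature peptides are stored in dense-core vesicles and released when calcium rises in the cell. Granins are acidic proteins of the same vesicles that help to form and load them, and they are in turn precursors of shorter peptides. Neuroblastoma arises from the sympathoadrenal lineage of the neural crest, whose cells store catecholamines together with such peptides, and chromogranin A is a classic tumour marker of this lineage.

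Signals are given in 2 forms: as deposited (linear, not normalized between arrays), and as log2 normalized signal after RMA background correction and quantile normalization. A probe counts as detected on an array where its deposited detection p-value was under 0.05. Median deposited signals were 104.7 to 119.9 per array, and 40.8% to 44.2% of probes were detected. Log2 fold changes, standard errors (SE) and adjusted p-values come from limma fitted on all 47322 probes and 8 arrays, with two-sided tests and p-values adjusted by Benjamini-Hochberg across every probe. A 95% confidence interval (CI) is that of the single probe, without adjustment. Probes bind their targets with different strength, so that levels are compared between groups and not between probes.

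The TRPM7 probe was undetected on all 8 arrays, with deposited signals between 108 and 119 (107.6 and 119.2, detection p between 0.0753 and 0.201), and the knockdown could not be checked on these arrays. Its log2 fold change was -0.25 (SE 0.45, adjusted p = 0.911) in SH-SY5Y and -0.08 (SE 0.45, adjusted p = 0.976) in SH-EP2 cells. The authors' methods describe quantitative RT-PCR of TRPM7 in both lines, a measurement apart from the arrays and not used here. The lines were set against 10 noradrenergic and 10 mesenchymal neuroblastoma markers. SH-SY5Y arrays detected 9 of the noradrenergic markers (not TH, tyrosine hydroxylase), and SH-EP2 arrays detected all 10 mesenchymal ones. In SH-EP2 cells TH, DBH and DDC, enzymes of catecholamine synthesis, were undetected on all 4 arrays. In SH-SY5Y cells FN1, PRRX1 and THBS1 were undetected and 7 of the mesenchymal markers were detected.

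Sequence upstream of the transcription start is shown for the 2 peptide genes with the largest increases in SH-SY5Y knockdown cells, NTS and VIP. Capitals mark TGACG on either strand (CGTCA when read on the printed strand), the half-site of the cAMP response element. Both windows are the 250 bases before the start, from RefSeq on GRCh38.p14: NTS at chr12:85874045-85874294 and VIP at chr6:152750547-152750796, both on the plus strand.
NTS: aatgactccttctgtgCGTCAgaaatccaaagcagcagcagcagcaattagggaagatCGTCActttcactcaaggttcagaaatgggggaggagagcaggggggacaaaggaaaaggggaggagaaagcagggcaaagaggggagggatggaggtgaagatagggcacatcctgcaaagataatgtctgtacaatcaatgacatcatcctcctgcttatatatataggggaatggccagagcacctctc
VIP: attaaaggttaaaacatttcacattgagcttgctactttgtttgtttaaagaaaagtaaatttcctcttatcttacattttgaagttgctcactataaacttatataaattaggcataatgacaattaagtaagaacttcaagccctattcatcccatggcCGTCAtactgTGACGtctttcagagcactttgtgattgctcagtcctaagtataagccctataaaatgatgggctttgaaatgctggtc
In NTS the half-sites begin 234 and 192 bases before the start, and in VIP 89 and 79 bases before it. The half-site was added to the search after the values had been seen. It occurs in 24.6% of all 35116 RefSeq windows of 250 bases before to 50 after a start, and in 6 of the 7 members with a window (NTS, VIP, SST, CARTPT, CHGA and SCG3, not NPY). A match is a run of letters only, and no binding was measured.

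The complete cAMP response element TGACGTCA, which contains the half-site on both strands, was found in 3 of the 7 windows against 1.85% of all windows. It is shown in capitals because these members carry the letters through which cAMP-responsive transcription is known to act. The stretches are SST at chr3:187670414-187670461 on the minus strand, CARTPT at chr5:71719112-71719159 on the plus strand and CHGA at chr14:92923076-92923123 on the plus strand.
SST: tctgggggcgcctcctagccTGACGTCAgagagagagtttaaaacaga
CARTPT: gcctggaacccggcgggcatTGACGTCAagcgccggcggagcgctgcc
CHGA: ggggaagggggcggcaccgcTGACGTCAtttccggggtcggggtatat
The element starts 47 bases before the start site in SST, 143 in CARTPT and 54 in CHGA. The windows of NTS and VIP hold the half-site without the full element, and no window was available for GAL, CHGB and SCG2. Of the genes with the full element, CHGA had a log2 fold change of -0.02 in SH-SY5Y knockdown cells. SST and CARTPT were at or near background there. A part of cAMP in the changes was not tested. The AP-1 motif TGANTCA was in 0 of the 7 windows against 7.71% of all windows. The E-box CACCTG, a motif of the SNAI family of repressors, was in 1 (CHGA, 93 bases before the start) against 20.6%.

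The first comparison asked how the knockdown affected the peptide genes in SH-SY5Y cells. NTS and VIP transcripts were several-fold more abundant in knockdown cells, and GAL was 2.08-fold lower. NPY and the 4 granins showed no difference that passed the test. SST and CARTPT were at or near background.

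NTS encodes the precursor of neurotensin and neuromedin N, peptides of gut and brain that act through NTSR1, NTSR2 and sortilin. The deposited signals of its detected probe were 153 and 141 on the control arrays, little above the array medians, and 991 and 1204 on the TRPM7 shRNA arrays. As log2 normalized signal the controls were 5.27 and 5.56, and the knockdown arrays 9.76 and 9.91. Both knockdown arrays lay far above both controls. The fitted log2 fold change was 4.42 (SE 0.22, n = 2 against 2), or 21.5-fold, the first of 47322 probes by increase, which is the value that chose NTS. The size depends on the background: it was 3.87 with the neqc correction, 3.13 with normexp and 2.72 without correction. The other NTS probe was undetected on all 8 arrays (detection p 0.464 to 0.921), and the mean over both probes gave 2.30.

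VIP encodes the precursor of vasoactive intestinal peptide, which relaxes smooth muscle and raises cAMP through VIPR1 and VIPR2. Its brighter probe gave deposited signals of 230 and 181 in controls and 921 and 1102 with the TRPM7 shRNA. The second probe gave 139 and 114 in controls and 300 (299.7) and 330 (330.04) in knockdown cells. On both probes each knockdown array was above each control array. VIP rose by a log2 of 3.01 on the brighter probe (6.77 and 6.61 to 9.64 and 9.76, SE 0.30, 8.05-fold, adjusted p = 3.33e-06). The second probe rose by 3.22 (4.71 and 3.81 to 7.46 and 7.51, SE 0.47, 9.33-fold, adjusted p = 0.000329). The probes stood at ranks 10 and 7 of all 47322 by fitted increase. Without background correction the log2 fold changes were 2.12 and 1.14, and without an intensity trend the second probe no longer passed (adjusted p = 0.118). VIP, followed by its brighter probe, passed under all 18 alternatives, with an adjusted p of 0.0376 at most. These include the mean over both probes, in place of the brighter probe, and a crossed pairing added after seeing the data.

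GAL encodes galanin, a peptide of sympathetic and sensory neurons. Its deposited signals were 894 and 672 in controls and 467 and 516 in knockdown cells, and the normalized log2 signals 9.49 and 9.49 against 8.42 and 8.44. The groups did not overlap, and GAL fell by 1.06 on the log2 scale (SE 0.25, adjusted p = 0.0289). The direction held but the call did not when any 1 of the 4 SH-SY5Y arrays was left out (-1.07 to -1.05, adjusted p 0.169 to 0.223). The call was also lost with median scaling (-0.91, adjusted p = 0.0975) and without an intensity trend (adjusted p = 0.277).

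NPY encodes neuropeptide Y, a cotransmitter of noradrenaline in sympathetic neurons. The deposited signals were 12471 and 10763 in controls and 12074 and 13091 in knockdown cells, so the groups overlapped. The log2 fold change was -0.05 (95% CI -0.38 to 0.29, adjusted p = 0.961), an interval that leaves out changes of the size seen for VIP. CARTPT, the precursor of the CART peptides, was detected on a single array, control replicate 2, and its log2 fold change was -1.15 (adjusted p = 0.331). SST, the somatostatin precursor, was undetected on all 4 SH-SY5Y arrays.

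The granins of SH-SY5Y cells differed little between the groups. CHGA (chromogranin A) gave log2 normalized signals of 11.13 and 11.38 in controls and 11.26 and 11.22 in knockdown cells, a log2 fold change of -0.02 (95% CI -0.35 to 0.32, adjusted p = 0.985). CHGB (chromogranin B) gave 11.26 and 11.11 against 11.36 and 11.16, a log2 fold change of 0.08 (95% CI -0.38 to 0.53, adjusted p = 0.950). The arrays of the groups overlapped for both. SCG2, the precursor of secretoneurin, gave 9.51 and 9.63 against 9.73 and 9.91. Its groups did not overlap, and the log2 fold change of 0.25 (95% CI 0.02 to 0.49) did not pass after adjustment (adjusted p = 0.397). SCG3, which binds chromogranin A and cholesterol-rich vesicle membrane, had a log2 fold change of -0.10 on one probe (95% CI -0.56 to 0.37, adjusted p = 0.937) and of -0.22 on the other (95% CI -0.84 to 0.39, adjusted p = 0.863). Its groups overlapped on both probes. The signs of the NPY, CHGA, CHGB and SCG3 values turned under some alternatives.

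**Figure D1:**
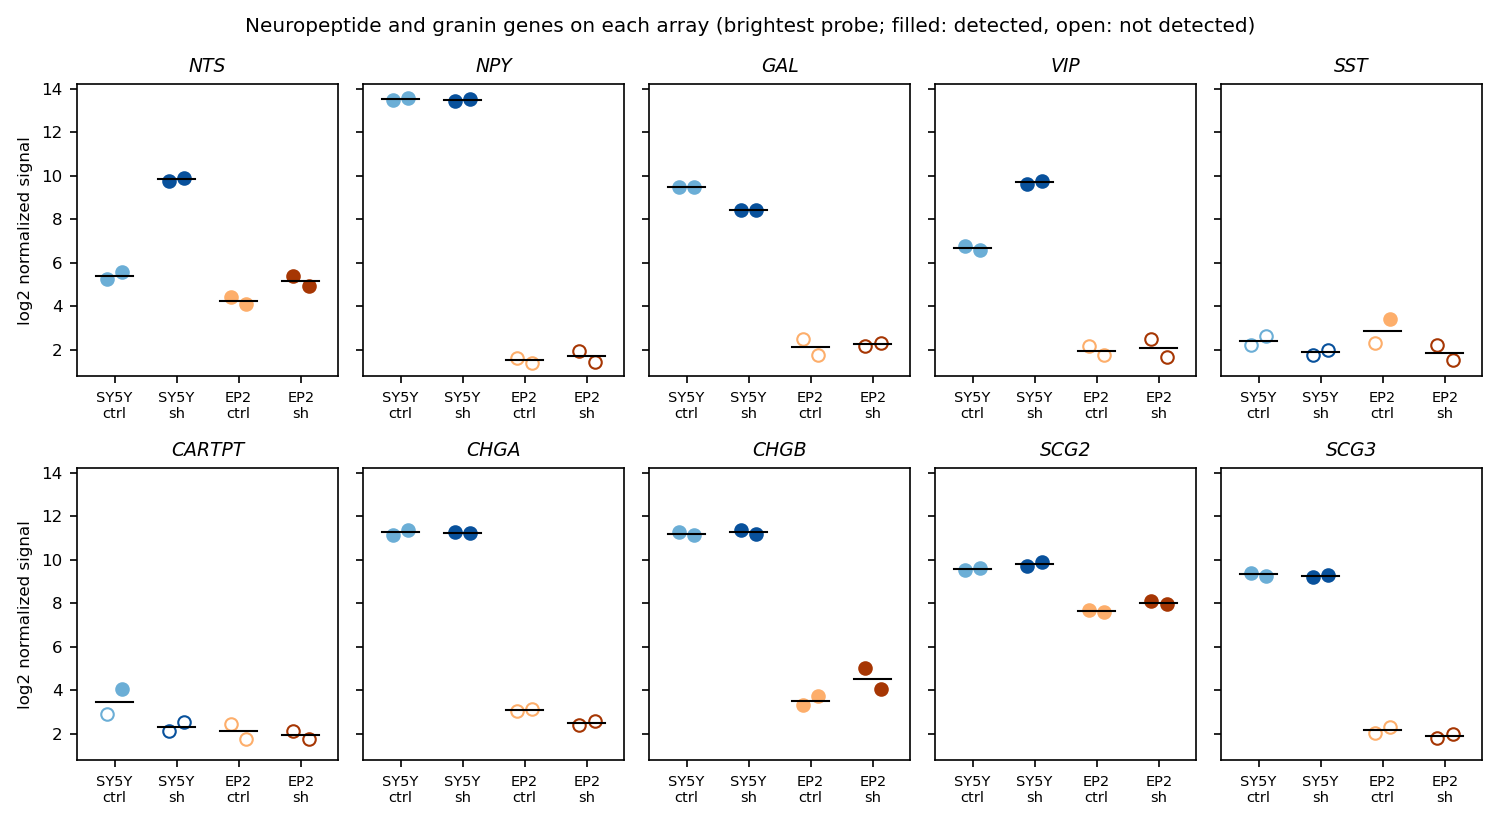
Log2 normalized signal (y axis) of each gene's brightest probe on every array, by group (x axis, with ctrl for nonfunctional shRNA and sh for TRPM7 shRNA). Filled points were detected, open points were undetected, and bars stand at the mean of 2 arrays. Panels are different probes, so levels compare within a panel only; NTS stood at 9.76 and 9.91 on SH-SY5Y knockdown arrays against 5.27 and 5.56 on controls.

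**Figure D2:**
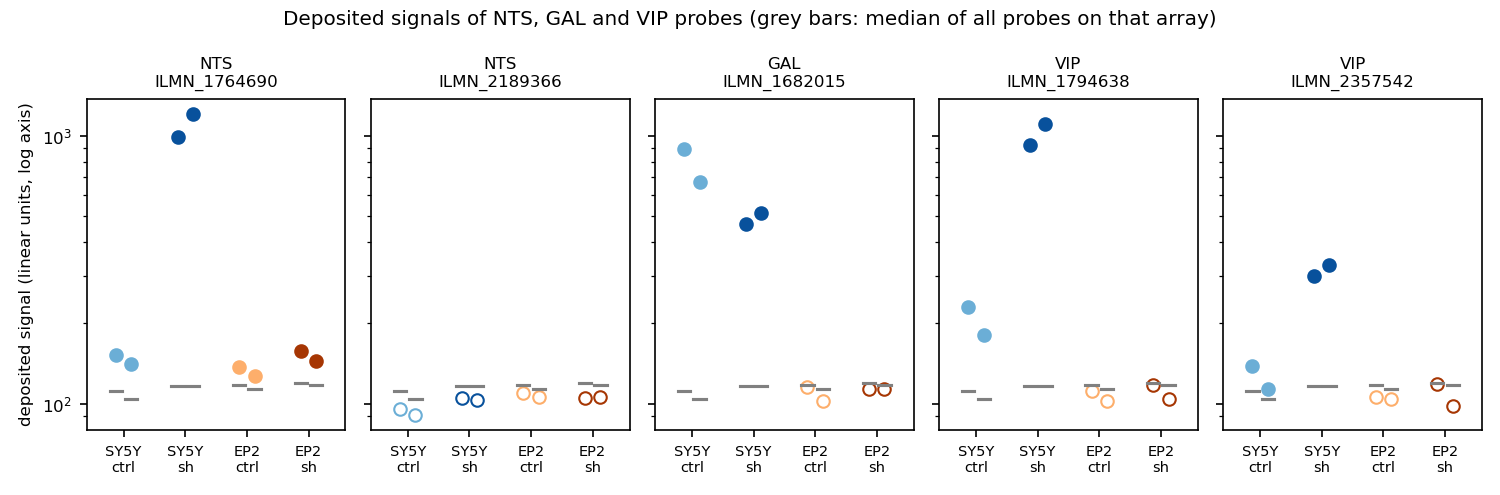
Deposited linear signals (y axis, log scale) of the NTS, GAL and VIP probes on every array by group (x axis), with grey bars at the median of all probes on that array, filled points detected and open points undetected. NTS stood at 153 and 141, just above the medians, in SH-SY5Y controls and at 991 and 1204 in knockdown cells, and its second probe lay below the median on all 8 arrays.

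Of the 9 genes tested in SH-SY5Y cells, 2 passed at an adjusted p under 0.05, VIP upward and GAL downward. Over all probes 2.11% passed, 0.807% upward and 1.30% downward. At an unadjusted p under 0.05, 4 of the 9 passed, against 11.4% of all probes. The arrays of the groups did not overlap for 5 of the 9 genes, against 39.1% of all probes. The median log2 fold change of the 9 genes was -0.05, and that of all probes 0.0048. The family was assembled around the NTS increase, so nothing is read from these counts.

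The noradrenergic markers were lower in sum in the same cells. Their summed normalized signal, on the linear scale, was 22502 to 23676 on the control arrays and 15958 to 16835 on the knockdown arrays of SH-SY5Y. Of the 10 markers, 0 rose and 2 fell: DBH, the enzyme that makes noradrenaline (log2 fold change -1.20, adjusted p = 0.000637), and ISL1, a transcription factor of sympathetic neurons (-0.45, adjusted p = 0.0144). The mesenchymal markers summed to 14193 to 15711 in controls and 12489 to 12797 in knockdown cells, with 0 up and 2 down (VIM and SNAI2). Over all probes 0.807% passed upward and 1.30% downward. Bright genes carry most of a linear sum, such as VIM, with mean log2 signals of 13.68 in controls and 13.38 in knockdown cells. GATA3 (0.35), CD44 (0.29) and COL3A1 (0.30) were higher without passing. The median log2 fold change of the detected markers was -0.27 (noradrenergic) and -0.30 (mesenchymal). The part of the markers in the changes of NTS, VIP and GAL was not tested. In bulk RNA, fewer cells that express a gene and less of its RNA per cell cannot be told apart.

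The same comparison in SH-EP2 cells rests on arrays that did not choose NTS, although normalization and the estimate of the spread were shared. Only NTS, CHGB and SCG2 were detected on both arrays of an SH-EP2 group, and on all 3 each knockdown array was above each control array. Over all probes, the arrays of these groups did not overlap, in either direction, for 42.9%, so nothing is read from this count. NTS and CHGB rose by about 1 on the log2 scale (0.91 and 1.01), and SCG2 did not pass the test. NPY, GAL, VIP, SCG3, CARTPT and CHGA were undetected on all 4 arrays.

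For NTS, the deposited signals were 137 and 127 in controls and 158 and 145 in TRPM7 shRNA cells. The log2 normalized signals were 4.43 and 4.08 against 5.40 and 4.93, and NTS rose by 0.91 (SE 0.22, 1.88-fold, adjusted p = 0.0224). For CHGB, the deposited signals were 125 (124.5) and 124 in controls and 149 (148.5) and 132 in knockdown cells. On the log2 scale these were 3.32 and 3.73 against 5.02 and 4.06, and CHGB rose by 1.01 (SE 0.22, 2.01-fold, adjusted p = 0.0110). All of these signals lie close to the SH-EP2 array medians, between 114 and 120 (119.9). Without background correction the changes were 0.18 for NTS (adjusted p = 0.305) and 0.15 for CHGB (adjusted p = 0.515). The NTS call was lost in 10 of 17 alternatives and the CHGB call in 8 of 17. Without the first SH-EP2 knockdown array NTS stood at 0.68 (adjusted p = 0.298) and CHGB at 0.54 (adjusted p = 0.233). NTS also lost its call without the second SH-EP2 control array (0.74, adjusted p = 0.217), and CHGB without the first (0.81, adjusted p = 0.159).

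SCG2 was well above background in SH-EP2 cells, with deposited signals of 326 and 287 in controls and 386 and 363 in knockdown cells. The log2 fold change was 0.40 (95% CI 0.16 to 0.64, adjusted p = 0.0718). It passed with the neqc correction (0.36, adjusted p = 0.0453) and when only probes detected on at least 2 arrays were tested (adjusted p = 0.0285). CHGA also met the threshold (adjusted p = 0.0344), but as it was undetected on all 4 arrays (detection p 0.0610 to 0.262), no fold is given. SST was detected on a single SH-EP2 array, control replicate 2.

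**Figure D3:**
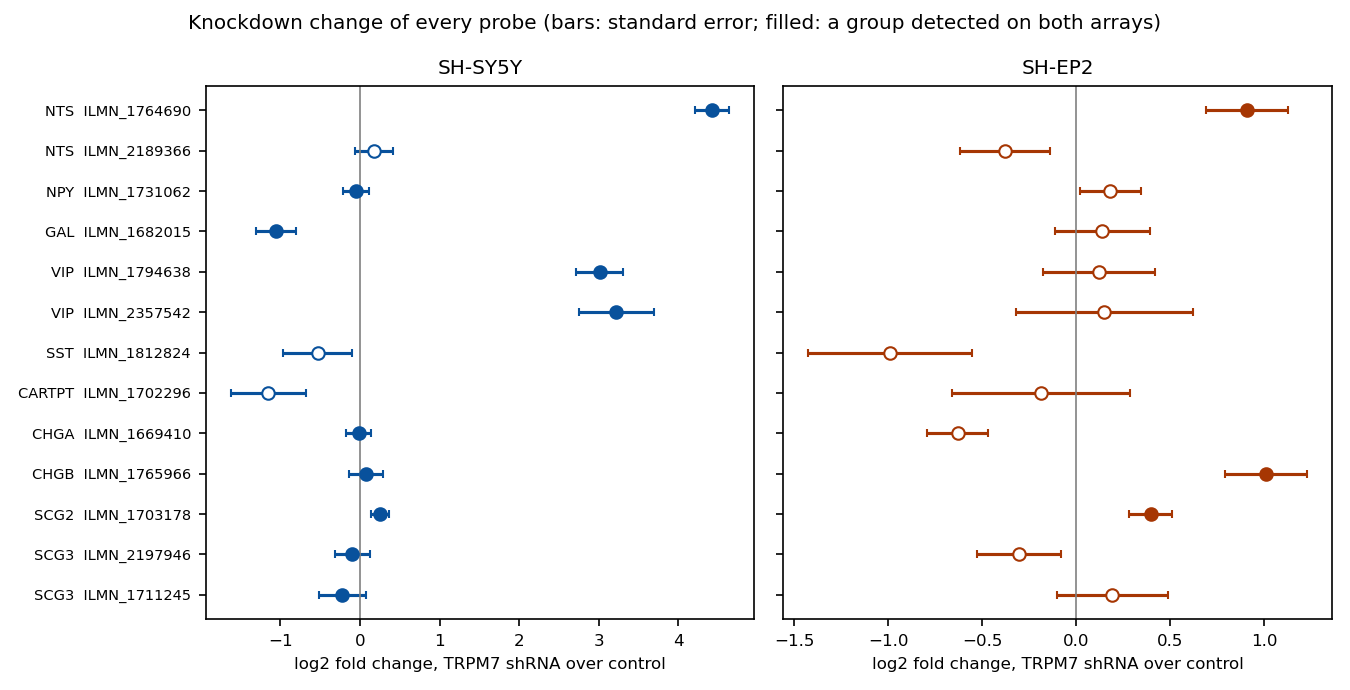
Log2 fold change of TRPM7 shRNA over control (x axis, with different ranges in the 2 panels) for each of the 13 probes (rows), with bars at 1 standard error and filled points where a group was detected on both arrays. In SH-SY5Y cells NTS (4.42) and both VIP probes (3.01 and 3.22) stand to the right and GAL (-1.06) to the left; in SH-EP2 cells NTS (0.91) and CHGB (1.01) are the detected probes that passed the test.

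In SH-EP2 cells 3 of the 10 genes passed (2 up, 1 down), 2 of them detected. The share over all probes was 3.02%, with 1.48% up and 1.54% down. At an unadjusted p under 0.05, 5 of the 10 passed, against 12.6% of all probes. Arrays did not overlap for 6 of the 10 genes, against 42.9% of all probes. The median log2 fold change was 0.13 over the genes and 0.0061 over all probes.

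Whether the knockdown effect differed between the lines was tested as an interaction, SH-SY5Y effect minus SH-EP2 effect. Of the 9 genes tested, VIP passed: 2.89 (SE 0.42, adjusted p = 0.000527) on the brighter probe and 3.07 (SE 0.66, adjusted p = 0.0193) on the second. The share over all probes was 1.40%. Without an intensity trend neither probe passed (adjusted p = 0.132 and 0.272). The second probe also lost its call without SH-EP2 control replicate 2, SH-EP2 knockdown replicate 2, SH-SY5Y control replicate 2 or either SH-SY5Y knockdown array (2.38 to 3.08, adjusted p 0.0621 to 0.120). Without background correction the differences were 2.11 and 1.13. VIP was undetected in SH-EP2 cells, where the fitted change was 0.12 and 0.15. The difference for GAL was -1.20 (95% CI -1.94 to -0.45, adjusted p = 0.133) and for CHGB -0.94 (95% CI -1.58 to -0.29, adjusted p = 0.202), neither past the threshold. For NTS the fitted effects differed by 3.51 (SE 0.31), given without a test because its SH-SY5Y change chose it.

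The control arrays of the lines were also compared, with arrays shared by the knockdown comparisons above. Nearly the whole family was lower in SH-EP2 cells: 9 of the 10 genes passed, all 9 lower in SH-EP2, and 8 of them were detected on both arrays of a group. Without NTS, whose choice used the SH-SY5Y control arrays, 8 of 9 passed. Over all probes 26.2% passed, 12400 of 47322, of which 6621 were lower in SH-EP2. The arrays did not overlap for 9 of the 10 genes (8 of 9 without NTS), against 55.3% of all probes. Where a gene was undetected in SH-EP2 cells, the fold is a lower bound under the RMA background correction only. It was set against the lowest detected signal or the gene's own value, whichever was higher. With such genes at their bound the median log2 difference of the 10 genes was -4.78 (fitted value -5.94), and that of all probes -0.017.

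Among the peptides, NPY was at least 1261-fold lower in SH-EP2 controls (adjusted p = 8.63e-21), GAL at least 76.7-fold (adjusted p = 5.25e-15) and VIP at least 11.0-fold (brighter probe, adjusted p = 9.05e-11). NTS was detected in both lines and differed by -1.16 on the log2 scale, lower in SH-EP2 cells (4.43 and 4.08 against 5.27 and 5.56). It is counted among the 9, and as the SH-SY5Y control arrays entered its choice no p is given. CARTPT passed as lower with detection on 1 SH-SY5Y control array (adjusted p = 0.0400). SST did not pass (0.45 higher in SH-EP2, adjusted p = 0.558).

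Among the granins, CHGA was at least 260-fold (260.4) lower in SH-EP2 cells (adjusted p = 1.17e-18), and SCG3 at least 69.0-fold (brighter probe, adjusted p = 1.28e-15). CHGB was detected in both lines and differed by -7.66 on the log2 scale, SH-EP2 minus SH-SY5Y (SE 0.22, 202-fold, adjusted p = 3.22e-16). Without background correction these differences were smaller (-6.90 for NPY and -4.30 for CHGB) and passed as well. Among alternatives that kept all arrays, the smallest log2 differences were -2.95 (GAL), -1.03 (VIP), -4.42 (CHGA) and -2.80 (SCG3), on the brighter probes. The folds given as lower bounds are larger than these. SCG2 differed least among the granins that passed, by -1.93 (SE 0.11, 3.82-fold, adjusted p = 3.22e-11). The order of the 4 groups for SCG2 was SH-SY5Y knockdown (9.82 ± 0.13, SD, n = 2), SH-SY5Y control (9.57 ± 0.08), SH-EP2 knockdown (8.03 ± 0.08) and SH-EP2 control (7.63 ± 0.07). In neither line did its knockdown and control groups differ past the threshold. For NTS the order was SH-SY5Y knockdown (9.84 ± 0.11), SH-SY5Y control (5.41 ± 0.20), SH-EP2 knockdown (5.17 ± 0.34) and SH-EP2 control (4.26 ± 0.24). The SH-EP2 knockdown and SH-SY5Y control values of NTS lie within their spread of each other.

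The 5 probes of other genes most like NTS by Pearson correlation of log2 normalized signal over the 8 arrays, among 20567 detected probes, were LOC389816 (r = 0.996), PCDHB10 (r = 0.984), KLHL14 (r = 0.982), DDB2 (r = 0.981) and C14orf100 (r = 0.980, listed by RefSeq as JKAMP). The 8 arrays form 4 groups, so that r here mostly compares group means. LOC389816 had a log2 fold change of 3.20 in SH-SY5Y and 0.56 in SH-EP2 cells, and KLHL14 3.29 and 0.0052. The changes were smaller in SH-SY5Y cells for PCDHB10 (1.01, and 0.11 in SH-EP2), DDB2 (0.59 and 0.21) and C14orf100 (0.28 and 0.11). VIP had an r of 0.874 with NTS and stood at rank 332, and SCG2 (r = 0.755) at rank 1870. The 8 arrays include the SH-SY5Y arrays whose difference chose NTS, so these correlations are a description only.

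The machinery that makes and releases the peptides was followed in 4 lists, each gene given by its brightest probe. Prohormone processing and sorting held 12 genes, among them the convertases PCSK1 and PCSK2, carboxypeptidase E (CPE) and the amidating enzyme PAM. Of these, 9 were detected on at least 2 SH-SY5Y arrays and 8 on at least 2 SH-EP2 arrays, and 0 rose and 0 fell in either line (2 of the 12 in each line at an unadjusted p under 0.05). PAM, for example, had a log2 fold change of 0.15 (SE 0.08, adjusted p = 0.498) in SH-SY5Y cells and -0.25 (SE 0.08, adjusted p = 0.112) in SH-EP2 cells, and CPE one of 0.28 (SE 0.12, adjusted p = 0.349) and -0.22 (SE 0.12, adjusted p = 0.495). The median over the detected genes was 0.09 in SH-SY5Y and -0.14 in SH-EP2 cells, and over all detected probes 0.017 in both.

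Dense-core vesicle docking and release held 21 genes, 20 with a probe (HID1 had none). In SH-SY5Y cells 14 were detected, 0 rose and 1 fell. This was SYT4, a synaptotagmin of dense-core vesicles, with a mean log2 signal of 11.82 against 12.88 in controls (-1.06, SE 0.16, adjusted p = 0.000589). In SH-EP2 cells 10 were detected, 1 rose and 0 fell. This was STX1A, a plasma membrane protein of the fusion complex, at 5.96 against 5.17 (0.79, SE 0.21, adjusted p = 0.0413). At an unadjusted p under 0.05 there were 2 in SH-SY5Y and 3 in SH-EP2 cells. The medians were 0.017 in SH-SY5Y and 0.15 in SH-EP2 cells.

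Of 18 receptors for the peptides, 5 were detected in SH-SY5Y cells, with 0 up and 0 down (1 at an unadjusted p under 0.05). In SH-EP2 cells 6 were detected, 0 rose and 1 fell. This was SORT1 (sortilin), a sorting receptor that also binds neurotensin, at 8.58 against 9.20 (-0.62, SE 0.14, adjusted p = 0.0118). In SH-SY5Y cells the log2 fold change of SORT1 was 0.09 (SE 0.14, adjusted p = 0.894). The other list held 22 further genes of peptide biology, with 6 detected in SH-SY5Y and 7 in SH-EP2 cells. In SH-SY5Y cells 1 rose and 0 fell, while 7 of the 22 had an unadjusted p under 0.05, against 11.4% of all probes. The riser was SCGN (secretagogin), which is a calcium-binding protein of secretory cells and no peptide precursor. It was detected in knockdown cells and undetected in controls, at least 3.90-fold higher (adjusted p = 0.00420). In SH-EP2 cells ADM, the adrenomedullin precursor, rose (10.93 against 10.21, 0.72, SE 0.13, adjusted p = 0.00163) and NMU, the neuromedin U precursor, fell (7.01 against 7.67, -0.66, SE 0.13, adjusted p = 0.00581). At an unadjusted p under 0.05 there were 4 of the 22 in SH-EP2 cells, against 12.6% of all probes. The background of the adjusted calls is the 2.11% and 3.02% of all probes that passed in the 2 lines.

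**Figure D4:**
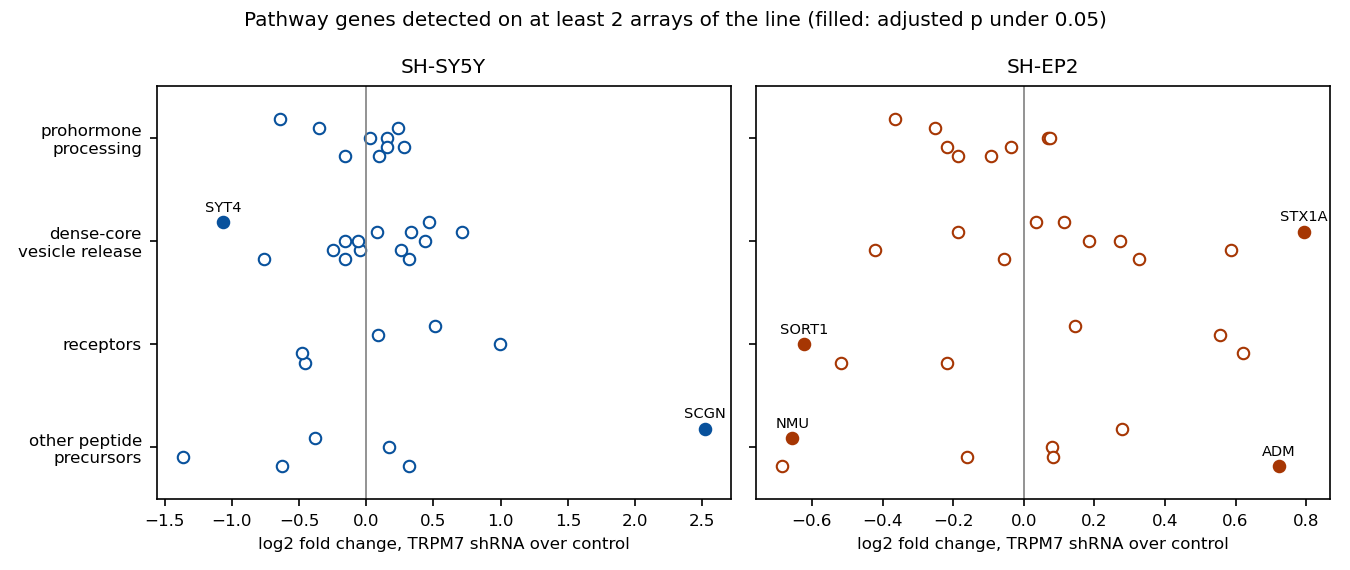
Log2 fold change of TRPM7 shRNA over control (x axis, with different ranges in the 2 panels) for each gene of the 4 lists (rows, points spread vertically for visibility) detected on at least 2 arrays of the line, filled where the adjusted p was under 0.05. In SH-SY5Y cells SYT4 and SCGN are filled, and in SH-EP2 cells STX1A, SORT1, NMU and ADM; the processing row has no filled point in either line.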

How the data were processed

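RNA of SH-SY5Y and SH-EP2 cells carrying a TRPM7 or nonfunctional shRNA was measured on 8 arrays in 4 groups of 2. Neither labels nor methods say whether replicates were separate cultures, so p-values measure the spread between arrays, which may be technical. The number of arrays limits the precision. The authors took signal intensities and detection p-values of the probes from GenomeStudio 2011.1 and deposited them without normalization between arrays. Their methods name RMA in Arraystar and p-values from Multi Experiment Viewer, and no test.

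Here the background of the deposited intensities was removed with the RMA model, followed by quantile normalization and log2, without a filter. Models were fitted in limma 3.58.1 (R 4.3.3) on 4 groups, with eBayes and an intensity trend. The procedure was tested on simulated data whose spread followed intensity, so the simulation could not test the intensity trend itself. Detection meant a deposited p-value under 0.05. A gene is given by its brightest probe, with other member probes named. From each list up to 4 genes past the threshold and detected on both arrays of the brighter group were named, and the 5 probes most like NTS; PAM and CPE were chosen as examples after their values were seen. The members, lists and tests were chosen with earlier results of these data known. Symbols are those of the deposited table. Some genes counted in the lists are not reported singly here. A bound used, per array, the higher of the probe's own value and the lowest signal among detected probes.

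Replicate differences correlated at -0.0045 (SH-EP2) and -0.11 (SH-SY5Y) between groups of a line, so the numbers do not pair arrays. As alternatives, the background was treated with neqc (offset 16) or normexp (offset 50) or left in place (with a floor of 1). Further ones were scaling by medians, probes detected on at least 2 arrays, no intensity trend, the replicate number as a block, each line alone, the mean over a gene's probes, and leaving out each array, where the lone array of a group is assumed to vary like the others.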

Additional observations from a re-analysis of the deposited data

Results flagged for a closer look

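The effect of the TRPM7 shRNA on VIP differed between the lines by the interaction test. It was 2.89 higher on the log2 scale in SH-SY5Y than in SH-EP2 cells (SE 0.42, adjusted p = 0.000527), with both SH-SY5Y knockdown arrays above both controls. Without an intensity trend the same difference did not pass (adjusted p = 0.132). VIP was undetected on all 4 SH-EP2 arrays, so the SH-EP2 side of the difference is a background value.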

How the results depend on the processing

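Of 391 alternative values for single probes, 351 kept direction and side of the threshold, 26 lost the call, 2 gained it, 4 moved (NTS in SH-SY5Y cells, given in the report) and 8 reversed. The reversed values were all small SH-SY5Y changes that had not passed. NPY was 0.041 with median scaling, 0.0040 with control replicate 2 left out and 0.0018 with TRPM7 shRNA replicate 1 left out. CHGA was 0.094 with median scaling, 0.106 with control replicate 2 left out and 0.0037 with TRPM7 shRNA replicate 2 left out. CHGB was -0.027 without TRPM7 shRNA replicate 1, and SCG3 0.049 with median scaling. With an array left out, NPY ran from -0.095 to 0.0040, CHGA from -0.138 to 0.106 and CHGB from -0.027 to 0.181. The cause was not tested.

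The number of genes passing in SH-SY5Y cells (2 of 9) was 1 with median scaling and 1 without an intensity trend, VIP remaining, and 1 to 2 when an array was left out. In SH-EP2 cells (3 of 10) it was 1 with neqc (SCG2, which is not among the 3). With the mean over probes it was 1, the undetected CHGA, as NTS (adjusted p = 0.804) and CHGB (adjusted p = 0.0512) lost the call. It was 0 with normexp, without background correction, without an intensity trend or with SH-EP2 arrays alone. Leaving out an array gave 0 to 2. For the interaction (1 of 9) it was 2 with neqc, normexp or no background correction, 0 without an intensity trend (VIP lost), and 1 to 2 when an array was left out. The count between control lines stayed within 1.5 times of 9 throughout. With the replicate number as a block, the counts were 2, 2, 9 and 1 for SH-SY5Y, SH-EP2, the lines and the interaction, the gene lost in SH-EP2 being the undetected CHGA, and no call changed among the detected probes recomputed singly. A crossed pairing of SH-SY5Y replicates, added after seeing the data, gave 1420 probes.

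Over all probes, 999 passed in SH-SY5Y cells, against 64 without an intensity trend, 559 of 31426 gene means and 622 to 634 leaving out TRPM7 shRNA replicate 1 or control replicate 2 of that line. In SH-EP2 cells 1429 passed, against 100 without the trend, 2587 with SH-EP2 arrays alone, 881 gene means and 675 to 781 when an SH-EP2 array was left out. The interaction gave 662, against 23 without the trend, 1153 with normexp, 1248 without background correction, 398 gene means, and 399 to 417 without SH-EP2 control replicate 2 or either SH-EP2 TRPM7 shRNA array. A slide block was not run, as no slide is named. Signals near background limit NTS and CHGB in SH-EP2 cells.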
